A study of Bos taurus with 9 samples.

Results

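The comparison described here sets primary bovine adrenal chromaffin cells given the neuropeptide PACAP against untreated cells of the same kind. It was chosen by array title and uses 6 of the 9 Affymetrix arrays of the series, 3 per group, and all 24016 probesets that are not array controls. The treated cultures received PACAP-38 at 100 nM for 6 h at 37 °C. The untreated arrays carry no treatment in their labels, and no vehicle is named for them. The remaining 3 arrays, of cells given TNF-alpha at 10 nM for 6 h, entered the shared estimate of the spread and are quoted where PACAP is set against TNF. Per the labels of the treated arrays, the cells came from adrenal glands digested with collagenase and DNase, were enriched by differential plating and were kept in medium with fetal calf serum and cytosine beta-D-arabinofuranoside, which stops dividing cells. The untreated arrays are labelled with the same tissue and cell type and carry no culture protocol of their own. Agilent arrays that the series design names were not analysed here. The series design calls the arrays technical repeats. No label says whether they stem from separate cultures or animals, so the p-values below rest on the spread from array to array, and that spread may be technical.

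Chromaffin cells are the secretory cells of the adrenal medulla, which store catecholamines and peptides in granules and release them when the splanchnic nerve fires. PACAP is a transmitter of that nerve. It acts through receptors coupled to G proteins that raise cyclic AMP and calcium in the cell, and it is known both for driving prolonged secretion and for switching on genes of neuropeptides and of catecholamine synthesis. The study asked which genes respond to it after several hours.

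A probeset is a group of short probes read together as 1 transcript. The table gives a log2 value per probeset and array, so a difference of 1 is a 2-fold change, and no gene names stand beside the probeset IDs in it. In the RefSeq gene table searched for names, 0 of the 24016 IDs were found. The responding genes are therefore described as probesets, markers of chromaffin and other adrenal cells were not analysed here, and the exceptions are control probesets whose IDs carry a gene name. In a bulk culture, more cells of a type and more RNA per cell cannot be told apart.

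The medians were 6.72, 6.72 and 6.67 on untreated arrays 1 to 3 and 6.66, 6.65 and 6.66 on PACAP arrays 1 to 3. Every PACAP median thus lay below every untreated one, while the median difference over all probesets was 0.002 (log2). Counts after further normalization are given below. Replicate 3 stood apart in both groups. Taken over probesets, which are not independent of each other, the correlation of replicate 1 with replicate 2 was 0.9985 for untreated and 0.9962 for PACAP-treated cells. For replicate 3 against either of them it was 0.9899 to 0.99 in untreated and 0.9894 to 0.9904 in PACAP-treated cells. Untreated replicate 3 and PACAP replicate 3 correlated at 0.9911, above the correlation of either with the other arrays of its own group. Results are therefore also given within replicates 1 and 2. The median SD of a probeset over the 3 arrays was 0.10 (log2) in untreated and 0.12 in PACAP-treated cells.

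PACAP was followed by many small decreases and by fewer but larger increases. At an adjusted p under 0.05 (limma), 3470 probesets differed, 14.4% of those tested. Of these, 1430 were higher (5.95%) and 2040 lower (8.49%) in PACAP-treated cells. The size of this surplus of falls depended on the normalization. It narrowed to 1519 higher and 1955 lower after quantile normalization, and to 1632 and 1850 after cyclic loess. Most changes were modest: 46% of the called rises and 52.5% of the called falls were under 1.5-fold. At least 2-fold changes made up 20.7% of the rises, or 296 probesets (1.23% of those tested), and 10.5% of the falls, or 215 probesets (0.895%).

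The upper tail was the longer one. Called rises numbered 243 between 2-fold and 4-fold, 39 between 4-fold and 8-fold, 7 between 8-fold and 16-fold and 7 at 16-fold or more. Called falls numbered 208 and 7 in the former 2 classes, and 0 fell 8-fold or more. Within replicates 1 and 2 the same classes held 343, 55, 10 and 11 rises and 368, 12, 1 and 0 falls. When limma's treat, added after seeing the data, asked whether a change exceeded 2-fold rather than merely differing from 0, 32 probesets passed upwards and 0 downwards at an adjusted p under 0.05, and 165 and 55 at an unadjusted p under 0.05. Against a minimum of 1.5-fold, 105 passed upwards and 42 downwards.

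The counts of smaller changes depended on single arrays. Leaving out untreated replicate 1 left 700 higher and 1034 lower, and leaving out untreated replicate 2 left 704 and 984. When PACAP replicate 1 was dropped the counts were 922 and 1316, and for PACAP replicate 2 they were 895 and 1151. Dropping a replicate 3 array changed them less, to 1729 and 2166 for untreated and 1350 and 2104 for PACAP. With the replicate number as a block there were 2206 higher and 3053 lower. Within replicates 1 and 2 there were 2907 higher (12.1% of those tested) and 4001 lower (16.7%), 28.8% together. These included 1396 of the 1430 rises and 2003 of the 2040 falls called on all arrays, and 295 of the 296 rises and 215 of the 215 falls of at least 2-fold. The same arrays also entered the calls on all arrays, so this overlap is no separate support. Replicates 1 and 2 were also the most alike arrays of each group.

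**Figure D1:**
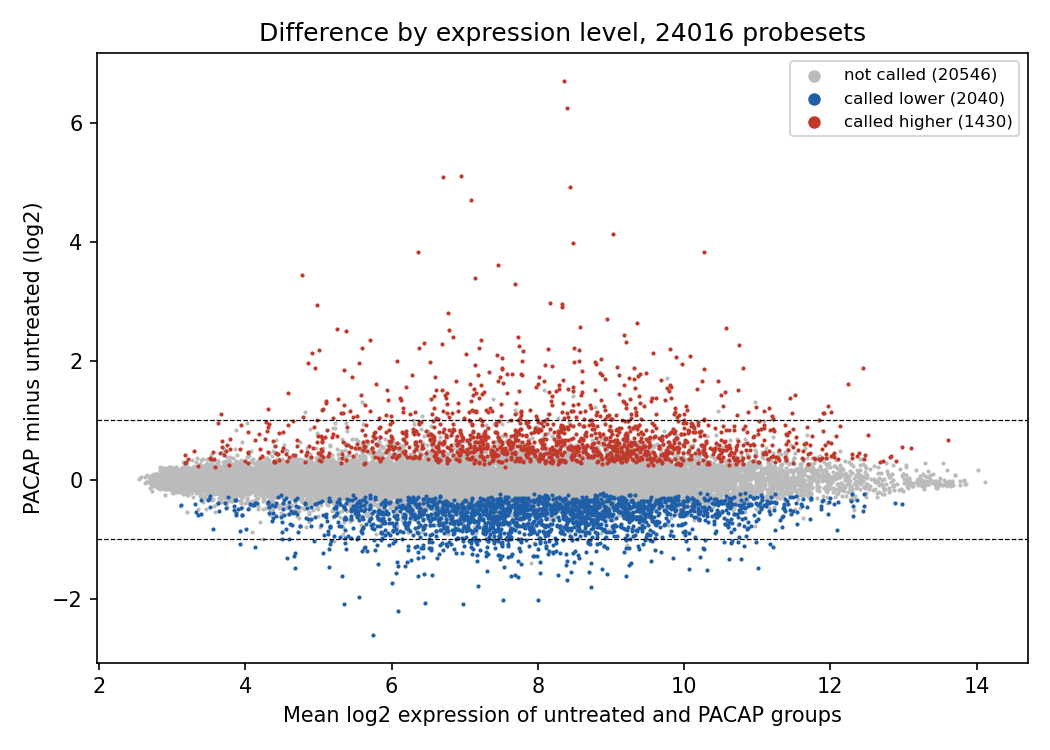
Difference between PACAP and untreated means (vertical axis, log2) against the mean of both groups (horizontal axis, log2 expression), 1 point per probeset, with dashed lines at 2-fold. The 1430 probesets called higher reach a difference of 6.70, while the 2040 called lower end at -2.60.

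Changes were spread over the middle and upper range of expression. Probesets were divided into 4 classes of equal size by their mean over all 9 arrays. In the lowest class 2.37% were called, then 10.4%, 21.6% and 23.4% in the classes above it. The share of rises among the calls was 48.6%, 38.7%, 38.9% and 43.7% from the lowest to the highest class. Within replicates 1 and 2 the called shares were 6.18%, 22.6%, 41.8% and 44.5%. The values were made with RMA, which compresses differences between dim probesets, and a low share among them is not a measure of how many dim transcripts changed.

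Few probesets crossed most of the range on every array. The rule used here excludes a probeset for a single array. By group mean, the rises ranked 3 and 4 by size moved from percentiles 20.8 and 17.5 to 85.8 and 83.1. Their untreated replicate 3 values, 5.79 and 4.83, lay above the lower quartiles of the arrays (4.72 to 4.76), so neither was counted. Of 5646 probesets below the lower quartile of every untreated array, 1 lay above the median of every PACAP array, and 0 lay above the upper quartile of every PACAP array. In the opposite direction, 0 went from above the median of every untreated array to below the lower quartile of every PACAP array. Crossings of the median went both ways: 128 probesets lay below it on all untreated and above it on all PACAP arrays, and 125 did the reverse. Of these, 98 and 115 were called by the test.

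The largest rise among the calls was that of Bt.11212.1.S1_at, dim in untreated cells and bright after PACAP. Its log2 values were 4.94, 4.73 and 5.37 on untreated arrays 1 to 3 and 11.64, 12.04 and 11.47 on PACAP arrays 1 to 3. The PACAP arrays lay far above the untreated ones without overlap. Over all probesets the arrays of both groups did not overlap in 14.2% of cases with PACAP higher and in 16.8% with PACAP lower. The difference of 6.70 (SE 0.24) is a 104-fold rise, with a 95% interval from 71.9-fold to 151-fold (limma adjusted p = 1.25e-05). In the ordering of all probesets by group mean it moved from the 28.4th to the 97.9th percentile.

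The next largest rise, of Bt.12930.1.S1_a_at, varied more between arrays. The untreated values were 4.66, 4.34 and 6.84, and the PACAP values 11.11, 11.38 and 12.08. Replicate 3 was the highest array in both groups, and the groups did not overlap. The rise of 6.25 (SE 0.65) corresponded to 75.9-fold, with a wide 95% interval from 27.4-fold to 211-fold (limma adjusted p = 0.000702). Within replicates 1 and 2 the difference was 6.75. The other probeset with the same cluster number in its ID rose by 4.71, from untreated values of 4.73, 4.54 and 4.94 to 8.67, 9.32 and 10.34 (limma adjusted p = 0.000252).

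The falls were smaller than the leading rises. Bt.29835.1.S1_at, with the largest fall among the calls, had untreated values of 7.52, 7.75 and 5.89 and PACAP values of 4.20, 4.55 and 4.60. The groups did not overlap, but untreated replicate 3 lay well below the other untreated arrays. Its log2 value fell by 2.60 (SE 0.43) with an adjusted p of 0.00495 in limma, a 6.08-fold fall with a 95% interval from 3.09-fold to 11.96-fold. Within replicates 1 and 2 it fell by 3.26.

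The untreated arrays were closer together for the next largest fall, of Bt.28566.1.S1_at, at 7.17, 7.36 and 7.04. On the PACAP arrays this probeset read 4.64, 4.75 and 5.58, with replicate 3 the highest and no overlap. It fell by 2.20 (SE 0.22, limma adjusted p = 0.000637), or 4.61-fold, with a 95% interval from 3.27-fold to 6.49-fold.

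**Figure D2:**
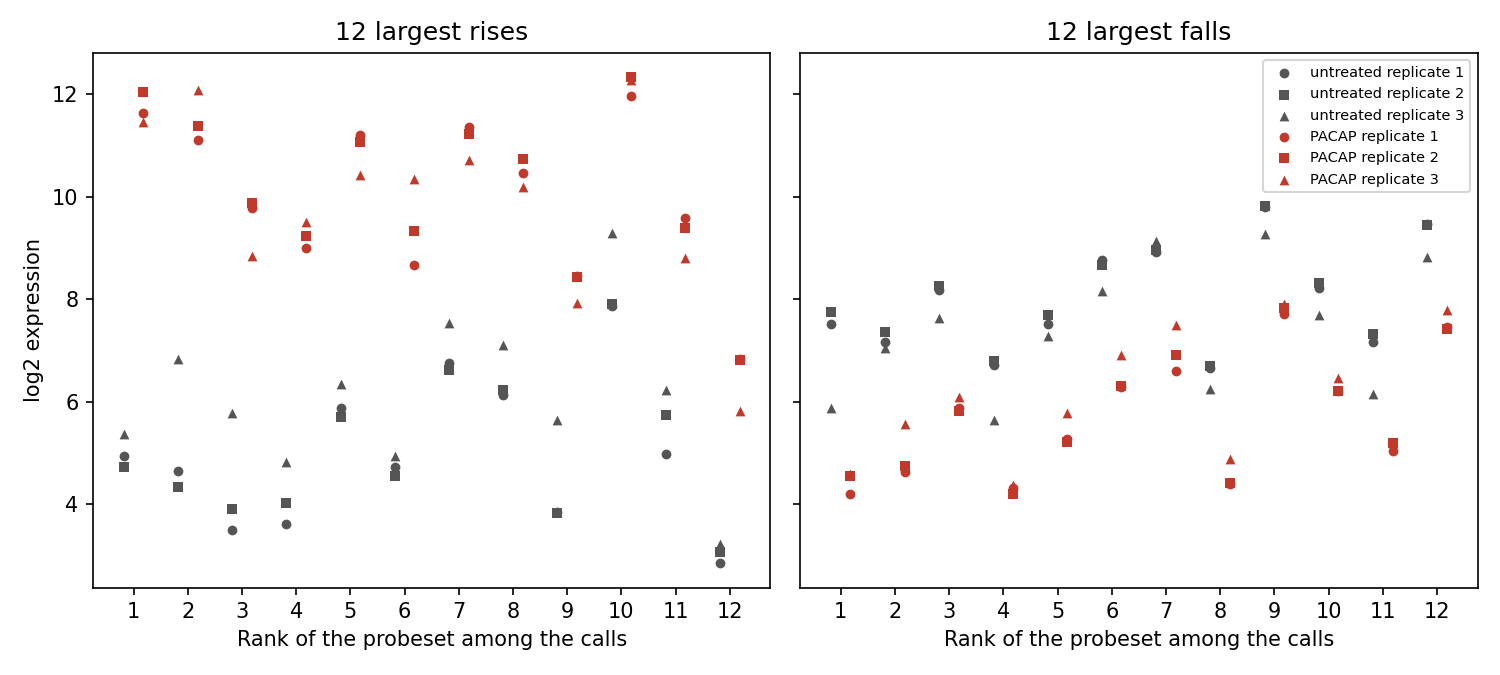
Log2 expression on each untreated (grey) and PACAP (red) array for the 12 largest rises and the 12 largest falls among the calls, ordered by rank, with circles, squares and triangles for replicates 1, 2 and 3. Groups do not overlap in any of the 12 rises and 12 falls, and in all of them but the rise ranked 6 the triangles of both groups lie closer together than the circles or the squares do.

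The 10 rises ranked 3 to 12 ran from 10.8-fold to 34.3-fold, with limma adjusted p-values from 5.76e-05 to 0.00115. Of these probesets, 8 lay below the middle of all probesets in untreated cells. Their untreated means ranged from 3.05 to 8.36 and their PACAP means from 6.49 to 12.19. One that was bright already, ranked 10, went from 7.87, 7.91 and 9.30 to 11.97, 12.33 and 12.27, a 14.2-fold rise. The 10 falls ranked 3 to 12 ran from 3.23-fold to 4.27-fold (limma adjusted p from 0.000313 to 0.00318). Only 2 of them had started below the middle of all probesets, with untreated means from 6.38 to 9.63. Their PACAP means ranged from 4.30 to 7.82.

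The leading rises also stood apart from cells given TNF. The probeset ranked first read 4.87, 4.80 and 5.51 on the TNF arrays, each close to the untreated array of the same number, and its PACAP mean exceeded the TNF mean by 6.65 (SE 0.24), at an adjusted p of 8.65e-06 in limma. All 10 rises ranked 3 to 12 were higher with PACAP than with TNF in that test, where 3.97% of all probesets were. Of the 53 probesets at least 4-fold higher than in untreated cells, 51 were also higher than with TNF. This test reuses the PACAP arrays that picked the probesets, and the doses differed, at 100 nM and 10 nM. The median difference of the 53 from untreated cells was 0.22 with TNF and 2.43 with PACAP, over the same untreated arrays.

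Against TNF the leading falls were mixed. Among the 7 falls of at least 4-fold with PACAP, 5 lay lower than with TNF in the direct test, where 5.1% of all probesets were. Against untreated cells, 1 of the 7 was called lower with TNF as well, the fall ranked 4, with a difference of -1.54 (limma adjusted p = 0.0269). It read 6.72, 6.80 and 5.64 untreated, 4.31, 4.21 and 4.38 with PACAP, and 4.92, 4.97 and 4.65 with TNF, and both comparisons share the untreated arrays. The fall ranked 1 had TNF values of 5.89, 6.03 and 5.36, between the groups, and the difference between PACAP and TNF did not pass the test (-1.31, SE 0.43, limma adjusted p = 0.104). The fall ranked 5 moved the other way with TNF. It read 7.52, 7.70 and 7.27 untreated, 5.27, 5.21 and 5.78 with PACAP, and 8.92, 9.03 and 8.18 with TNF. TNF was 1.22 above untreated cells (limma adjusted p = 0.0436) and PACAP 3.29 (SE 0.24) below TNF for this probeset (limma adjusted p = 0.000108).

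Among probesets at least 2-fold changed in 2 replicate pairs, the direction was nearly always shared by the third, but the size was not. Over all probesets, 52.7% had the same sign in all 3 pairs. Arrays of the same number were set against each other, PACAP minus untreated. Of the 336 probesets at least 2-fold higher in both pairs 1 and 2, 331 were also higher in pair 3, which had no part in choosing them, and 170 were at least 2-fold higher there, or 50.6%. Over all probesets 0.966% were at least 2-fold higher in pair 3. Of the 262 probesets at least 2-fold lower in pairs 1 and 2, 260 were lower in pair 3 and 67, or 25.6%, at least 2-fold, where 0.45% of all probesets were.

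The reverse choices gave larger values in the pair left out. They required a 2-fold change in pair 3, where fewer probesets reached it than in pairs 1 and 2. They also chose on 1 of pairs 1 and 2, which were alike, and read the other. High shares are thus favoured by the choice itself. Of 182 probesets at least 2-fold higher in pairs 2 and 3, 93.4% were at least 2-fold higher in pair 1, where 1.97% of all probesets were. Of 184 chosen in pairs 1 and 3, 92.4% were so in pair 2, where 1.81% of all were. For falls the shares were 83.8% of 80 in pair 1 and 90.5% of 74 in pair 2, where 1.6% and 1.8% of all probesets were. Read in pair 3, the rises chosen in pairs 1 and 2 had a median difference of 1.00 against 1.46 where they were chosen, and the falls one of -0.81 against -1.27. Over all probesets the SD of the differences was 0.44 in pair 1, 0.44 in pair 2 and 0.32 in pair 3. The differences correlated across probesets at 0.855 between pairs 1 and 2, 0.726 between pairs 1 and 3 and 0.73 between pairs 2 and 3.

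The levels behind these differences depended on which pairs chose the probesets. For the 336 rises chosen in pairs 1 and 2, the median level was 7.36, 7.27 and 7.78 on untreated arrays 1 to 3, and 9.19, 9.12 and 8.95 on PACAP arrays 1 to 3. Choosing on arrays 1 and 2 itself favours such a narrower gap on array 3. For the 184 rises chosen in pairs 1 and 3 the medians were 6.75, 6.71 and 6.98 untreated and 8.84, 8.80 and 8.79 with PACAP. For the 182 chosen in pairs 2 and 3 they were 6.75, 6.71 and 6.99 untreated and 8.88, 8.84 and 8.87 with PACAP. Untreated array 3 was the highest of its group under all 3 choices, while PACAP array 3 was nearly level with the other PACAP arrays under the latter 2. For the 336 rises, on TNF arrays 1 to 3, which did not enter the choice, the median was 7.68, 7.74 and 7.87. For the 262 falls chosen in pairs 1 and 2 the medians were 8.27, 8.27 and 7.91 untreated, 6.97, 6.93 and 7.14 with PACAP, and 7.87, 7.94 and 7.73 with TNF. How replicate 3 differed from the others is not stated in the labels, and what part it had in these values was not tested.

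Single probesets departed from the pattern. One was 2.80 and 2.31 higher with PACAP in pairs 1 and 2 and 0.03 higher in pair 3. It read 8.28, 8.39 and 10.05 on untreated arrays and 11.08, 10.70 and 10.08 on PACAP arrays, so that only replicate 3 was level (limma adjusted p = 0.0943, and 1.86e-05 within replicates 1 and 2). Its TNF arrays read 8.38, 8.32 and 10.14, with replicate 3 high as in untreated cells. Another rose more in pair 3, by 3.65, than in pairs 1 and 2, by 1.12 and 1.03, with an untreated replicate 3 value of 5.25 below the other untreated values of 6.61 and 6.68 (limma adjusted p = 0.0448). Both were singled out after their values were seen, as extremes of the gap between pairs.

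**Figure D3:**
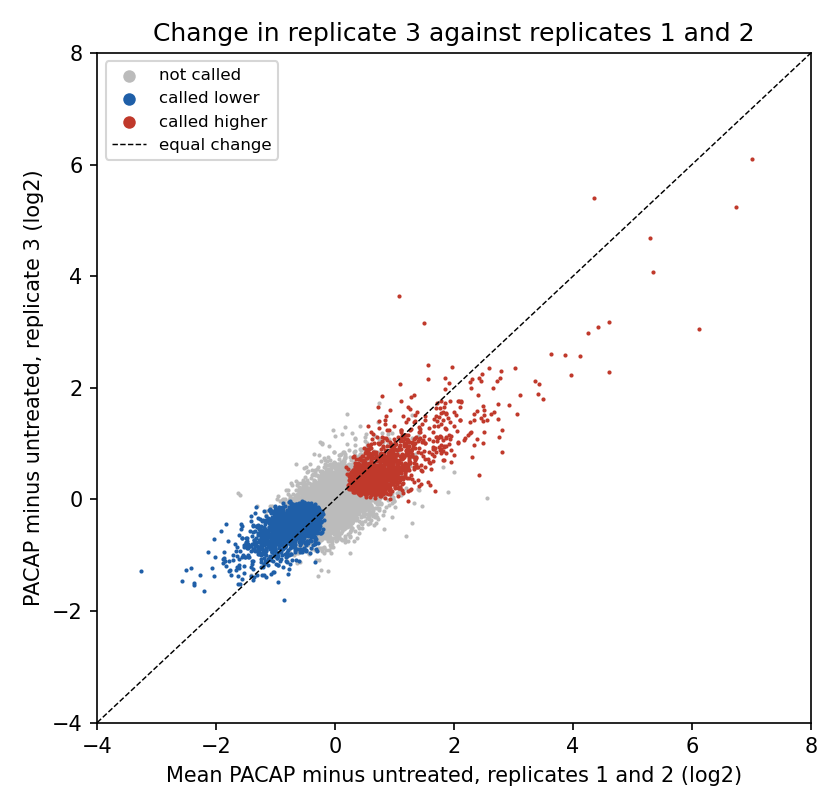
PACAP minus untreated in replicate 3 (vertical axis, log2) against the mean of the same difference in replicates 1 and 2 (horizontal axis, log2), 1 point per probeset, with a dashed line where both are equal. Of the 296 rises of at least 2-fold 256 were smaller in replicate 3, as were 196 of the 215 falls, and these points lie between the dashed line and zero change.

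Probesets that share a cluster number in their IDs gave a second reading of many changes. In these IDs the number after "Bt." is that of a transcript cluster, so that probesets with the same number were designed against related sequences, usually of 1 gene. The 24016 probesets fall into 19287 such numbers, with 21 more that carry none, and 3018 numbers are held by exactly 2 probesets. Counted by cluster number, or by ID for those without one, the at least 2-fold rises came from 263 clusters and the falls from 202. The 12 leading rises came from 10, since ranks 2 and 6 share a number, as do ranks 8 and 11.

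In clusters of exactly 2, a probeset and its partner mostly moved together. A cluster with both members called at least 2-fold the same way is counted once for each member. This makes the shares below higher than a count by cluster would. Of 85 probesets at least 2-fold higher with PACAP that had 1 partner, 69 partners were called higher too, or 81.2%, against 5.95% of all probesets. The partners' median difference was 1.17, where the probesets that picked them had one of 1.34. Of 43 probesets at least 2-fold lower, 33 partners were called lower, or 76.7%, against 8.49%, with a median of -0.93. A partner was called the other way in 0 of these 85 and 0 of these 43 cases (limma), also at an unadjusted p under 0.05 (0 and 0). Partners are read from the same RNA on the same arrays, so they repeat the probes and not the samples. Within replicates 1 and 2 the shares were 84.8% of 112 for rises, against 12.1% of all probesets called higher there, and 89.6% of 77 for falls, against 16.7% called lower. Across the 3018 clusters the 2 differences correlated at 0.776 (Pearson) and 0.696 (Spearman).

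In many clusters only 1 member was called. Both were called higher in 103 clusters and lower in 106, while 140 held 1 called rise and 244 held 1 called fall beside a member without a call. A called rise and a called fall stood together in 4. The widest of these 4 held a rise of 0.81 (limma adjusted p = 0.00339) beside a difference of -0.75 (0.00114). The largest gap of all lay between a probeset that rose by 2.93, from 3.51 ± 0.22 (SD, n = 3) to 6.45 ± 0.76 (limma adjusted p = 0.000904), and a partner at 3.97 ± 0.27 untreated and 4.05 ± 0.20 with PACAP (adjusted p = 0.813). In the next, a rise of 1.96 from 4.58 ± 0.34 to 6.54 ± 0.31 (limma adjusted p = 0.00144) stood beside a partner at 5.31 ± 0.16 and 5.29 ± 0.08 (adjusted p = 0.936). These clusters were picked for their gap after the values were seen.

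**Figure D4:**
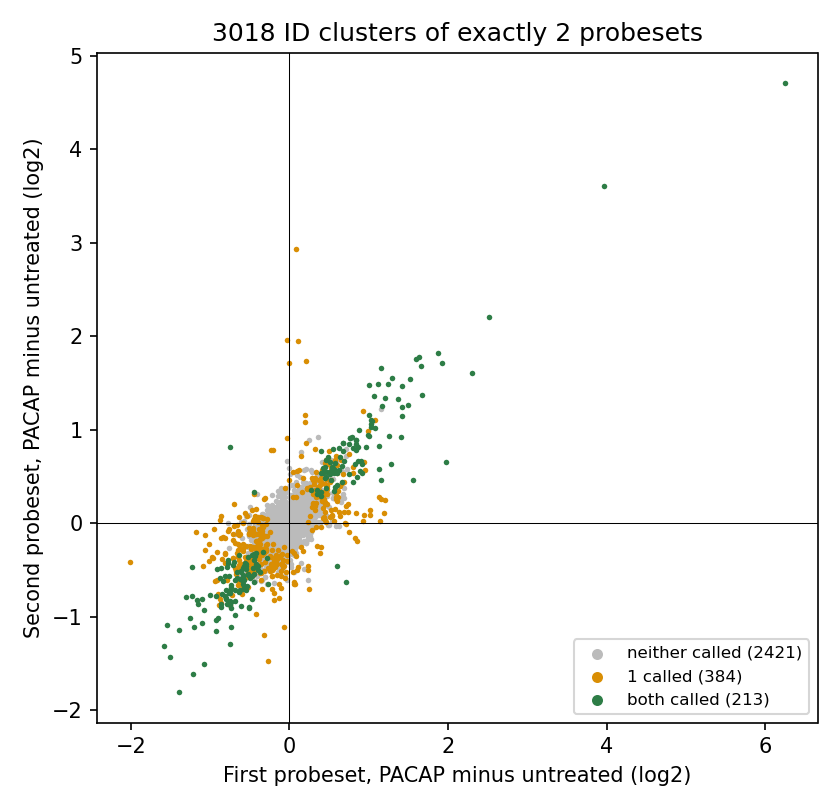
PACAP minus untreated (log2) for both members of the 3018 clusters of exactly 2 probesets, 1 point per cluster, coloured by how many members were called. Clusters with both members called lie along the diagonal apart from 4 with opposite signs, and a few with 1 call lie on the axes, such as the cluster with differences of 2.93 and 0.08.

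The class of probeset made little difference to the share called, with 1 exception. Plain probesets (ending in _at) were called in 14.5% of 22410 cases, those that read several transcripts of 1 gene (_a_at) in 14.5% of 1280, and those shared between genes (_s_at) in 13.6% of 235. Of the 91 that hold probes able to bind unrelated transcripts (_x_at), 0 were called (limma), and 5 had an unadjusted p under 0.05. The difference between classes was not tested.

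For most probesets without a call, the interval of the difference lay within 2-fold on these arrays. The intervals rest on the spread from array to array, which may be technical. They do not bound a change across cultures or animals. The 95% interval of the difference lay within 2-fold in both directions for 21871 probesets, 91.1% of those tested, and within 1.5-fold for 70.9%. Of the 20546 probesets not called, 19659, or 95.7%, had an interval within 2-fold. For the other 887 it reached 2-fold or beyond, and a change of that size remains possible even on the array spread alone. A mean difference of at least 2-fold without a call was seen for 15 probesets upwards and 6 downwards. The median SE was 0.11 (log2). RMA compresses differences of dim probesets, so for them the bounds hold for the deposited values rather than for transcript levels.

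Named genes could be followed only among the control probesets, which were chosen after their values were seen and fitted together with all others, 24128 in all. Calls were made for 2 probesets of eIF-4E and 1 of ef1a and for no other gene-named control probeset. That share is near the 14.4% called over all probesets, so the calls do not set these controls apart. The cap-binding initiation factor eIF-4E, which brings messenger RNA to the ribosome, is read at its 5′ end, middle and 3′ end. At the 3′ end it read 10.89, 10.96 and 11.21 on untreated and 11.51, 11.56 and 11.36 on PACAP arrays, all PACAP arrays being higher. The rise was 0.46 (SE 0.10, limma adjusted p = 0.0203), or 0.61 within replicates 1 and 2. The middle probeset rose by 0.60 (SE 0.16, limma adjusted p = 0.0374), from 9.45, 9.53 and 9.95 to 10.04, 10.45 and 10.24. The 5′ probeset, with 8.23, 8.30 and 8.80 untreated and 8.68, 9.32 and 9.24 with PACAP, had a difference of 0.63 (SE 0.22) and did not pass (limma adjusted p = 0.1).

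These eIF-4E calls depended on single arrays. At the 3′ end the call ended on leaving out untreated replicate 1 (limma adjusted p = 0.0883), untreated replicate 2 (0.0869), PACAP replicate 1 (0.0677) or PACAP replicate 2 (0.0777). The call in the middle was lost without untreated replicate 1 (0.142), untreated replicate 2 (0.139), PACAP replicate 2 (0.129) or PACAP replicate 3 (0.0752), and in a fit of the 6 arrays alone (0.0608). The 5′ probeset passed without untreated replicate 3 (0.0427), without PACAP replicate 1 (0.0492), within replicates 1 and 2 (0.0197) and with array weights (0.0072).

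Elongation factor ef1a, which carries charged transfer RNA to the ribosome, read lower at its 3′ end. Its values there were 11.83, 11.82 and 11.99 untreated and 11.28, 11.31 and 11.71 with PACAP, without overlap. It fell by 0.45 (SE 0.12, limma adjusted p = 0.0382). The call was lost without untreated replicate 1 (0.0946), 2 (0.0938) or 3 (0.0933), without PACAP replicate 1 (0.124) or 2 (0.132), and in a fit of the 6 arrays alone (0.0749). The middle probeset had a difference of -0.44 (SE 0.26, adjusted p = 0.332) and the 5′ probeset one of -0.10 (SE 0.09, adjusted p = 0.543), so the 3 readings of this gene did not all pass. The 5′ probeset lay near the top of the scale, at 13.90 in untreated cells.

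The remaining gene-named controls showed no called change. For gapd, a glycolytic enzyme, the 3 probesets had differences of 0.06, 0.05 and 0.07 at the 3′ end, 5′ end and middle, and the widest 95% interval ran from -0.21 to 0.33. All 3 lay near the top of the scale, at 13.22 in untreated cells. Actin, a cytoskeletal protein, had differences of 0.18, 0.22 and 0.24, and the last came closest to a call (limma adjusted p = 0.0694), with values of 5.63, 5.61 and 5.43 untreated and 5.73, 5.83 and 5.84 with PACAP. The probesets labelled Cyph had differences from 0.05 to 0.12, and those labelled GST from -0.19 to -0.03. Both Lacphor probesets, at 3.38 and 5.79 in untreated cells, had 95% intervals from -0.15 to 0.15 around a difference close to 0. The small differences of 2 gapd probesets, 1 GST probeset and both Lacphor probesets turned sign under some settings, within 0.04 of 0.

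**Figure D5:**
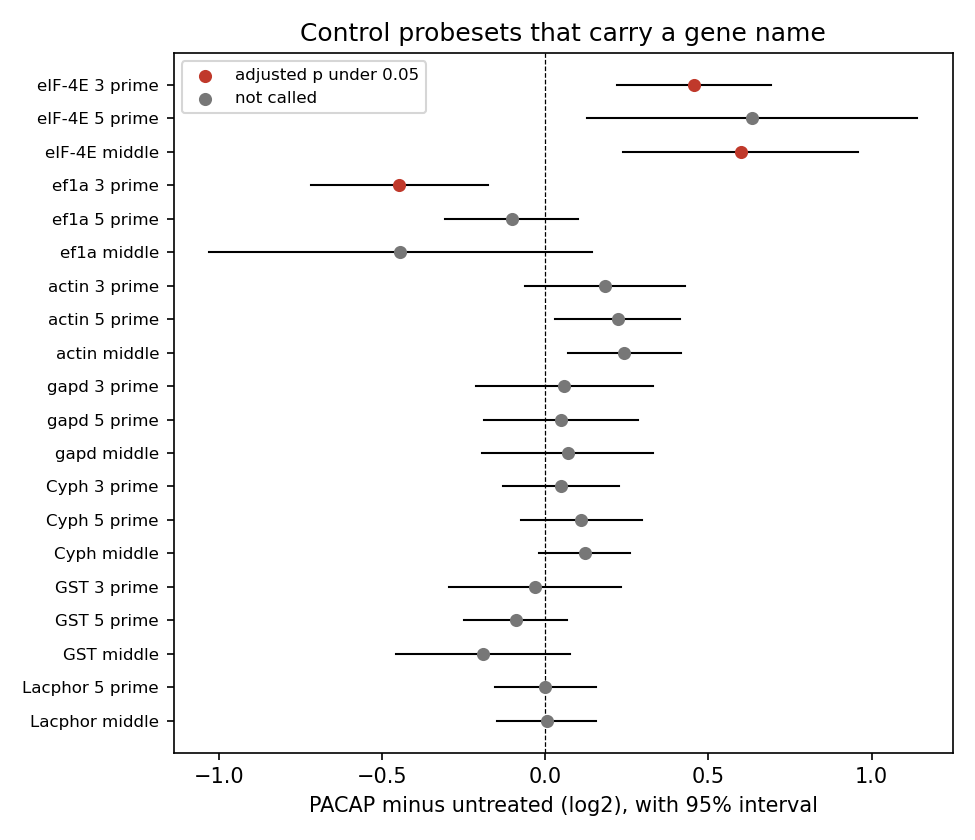
PACAP minus untreated (horizontal axis, log2) for each control probeset that carries a gene name, with 95% intervals from limma, in red where the adjusted p was under 0.05. Both red eIF-4E points, at 0.46 and 0.60, lie to the right of 0 and the red ef1a point, at -0.45, to the left.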

How the data were processed

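The authors deposited log2 values for each probeset on each array. RMA in Affymetrix Expression Console, named without versions in the submitters' processing notes, corrects background, equalises array distributions and summarises probes. Each array received target from 5 ug of total RNA, per the labels' protocols.

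Of 24128 probesets, 112 controls were left out. Group means were fitted to all 9 arrays (6 residual degrees of freedom) with limma 3.58.1 in R 4.3.3 and empirical Bayes moderation, and p-values were two-sided and Benjamini-Hochberg adjusted over 24016 probesets. Calls have an adjusted p under 0.05. Arrays were grouped, and numbered, by title. Deviations from group means correlated between same-numbered PACAP and untreated arrays at 0.468, 0.413 and 0.652, and over all group pairs at 0.226 or more. Deviations cancel out within a group, so a number that stands apart in both groups compared makes the other numbers correlate too. These values therefore cannot show that each number marks a pair, and correlations of deviations between different numbers are not given. The numbers were nonetheless taken as pairs, and a block was fitted beside the main model. The procedure was tested on simulated data with independent noise on each array. Same-numbered arrays were not made alike there, so that test does not show how the procedure deals with replicate 3. The number of arrays limits the precision.

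Planned gene lists and promoter motifs could not be used, since no names were matched. By the naming rule, the 2 largest called rises and 2 largest called falls, with the same sign in all 3 pairs, are given by ID. The comparison, lists and control genes were chosen with earlier results of these data known.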

Additional observations from a re-analysis of the deposited data

How the results depend on the processing

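The counts of at least 2-fold rises stayed between 237 and 419 and those of falls between 165 and 381 over 17 other settings, against 296 and 215; the exception past 1.5 times was 381 falls within replicates 1 and 2. The 4 probesets given by ID kept direction and call in all 16 settings run for each. Counts of any size moved more. Higher and lower probesets numbered 2821 and 3602 with array weights, 2206 and 3053 with the replicate block, 768 and 990 with the block and replicates 1 and 2 averaged, 2907 and 4001 within replicates 1 and 2, and 632 and 879 at an adjusted p under 0.01. Leaving out single arrays gave 700 to 1729 higher and 984 to 2166 lower. The block, fitted because the numbers were taken as pairs, ended no call of the 4 probesets. Rises made up 41.2% of the calls, and 43.7% and 46.9% after quantile and cyclic loess normalization. For gene-named controls, where eIF-4E and ef1a kept their sign in all settings, replicates 1 and 2 averaged with the block gave an adjusted p of 0.181 and 0.154 for the 3′ and middle eIF-4E probesets and 0.0895 for ef1a at the 3′ end; the cause was not tested. The setting with control probesets kept, and those for the control genes, were added after seeing the data. Dim probesets carry the least signal over background, and no detection calls were used. Averaging the probesets of a gene was not run, since no names were matched.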
